A study of Rattus norvegicus with 16 samples.

Results

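The genes for the proteins of the cytosolic ribosome were followed in glomeruli of rats with puromycin aminonucleoside (PAN) nephrosis. They were taken by name: protein-coding genes whose symbol is Rpl, Rps or Rplp followed by a number, with an optional a, x, l or y ending. This gave 85 of the 13222 genes in the table, carrying 76 symbols, because 7 symbols are each listed under more than 1 gene identifier. Of the 85, 48 encode large-subunit proteins, 34 small-subunit proteins and 3 the stalk proteins Rplp0, Rplp1 and Rplp2 of the large subunit. Rpsa, Fau, Rack1 and Rpl36al, which also encode ribosomal proteins, fall outside the naming pattern and are given separately. No member carries the symbol Rps19 or Rpl22, so these were not analysed here.

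Glomeruli were sieved on day 11 from the kidneys of male Wistar rats of about 175 g, and poly(A) RNA was sequenced with a strand-preserving kit. There were 4 groups of 4 rats: healthy controls, PAN, PAN with pioglitazone, and PAN with GQ-16. PAN, a toxin that injures podocytes, was injected intravenously, and the drugs or a sham vehicle were given every day by gavage. Pioglitazone is a full agonist and GQ-16 a partial agonist of the nuclear receptor PPARγ. The labels name no dose, do not say whether controls received a vehicle, and do not tie rats of different groups together. Levels are in CPM, that is, reads of a gene scaled to a fixed total of the reads counted in the listed genes of that library.

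The cytosolic ribosome joins a small subunit, which decodes the message, to a large subunit, which forms peptide bonds. The mRNAs of its proteins usually share a start called the 5′ terminal oligopyrimidine (TOP) motif, a C at the cap followed by an unbroken run of C and T, through which mTORC1 and LARP1 regulate translation of the whole family. Several members also act outside the ribosome: Rpl5 and Rpl11 bind and restrain MDM2, the ubiquitin ligase of p53, and Rps27l is a transcriptional target of p53.

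The annotated transcription starts of RefSeq in the rat assembly GRCr8 show that shared start in part of the family. Promoter entries were found for 60 of the 76 symbols (61 entries). A C at the annotated start followed by 4 or more C or T, read on the strand of the gene, was present in 20 of the 61 entries (32.8%) and in 2.63% of all 33469 promoter entries of that table. The windows below run from 10 bases before the start to 20 bases from it. They are shown because the first 7 carry the TOP-type start, in capitals, while the last 3, paralogues of canonical members, do not carry it at the annotated start.

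Rplp0: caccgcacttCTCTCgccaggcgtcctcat
Rpl10: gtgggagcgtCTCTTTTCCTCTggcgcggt
Rpl19: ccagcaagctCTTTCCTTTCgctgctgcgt
Rpl31: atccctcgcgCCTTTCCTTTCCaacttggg
Rps7: agagctgtgtCTCTTTCTaagccggcactc
Rps18: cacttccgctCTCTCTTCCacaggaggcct
Rps27: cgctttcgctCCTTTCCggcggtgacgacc
Rps27l: ttcatttgtcattatttgtggtgtccagag
Rpl22l1: gtggatatccggttccgagttgcgcagcgc
Rpl7l1: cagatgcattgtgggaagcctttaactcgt

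In GRCr8 these windows lie at chr12:46718371-46718400 on the minus strand for Rplp0, chrX:157205840-157205869 on the plus strand for Rpl10, and chr10:83519054-83519083 on the plus strand for Rpl19. Those of Rpl31 and Rps7 are at chr9:49143101-49143130 (plus) and chr6:50999426-50999455 (minus). Those of Rps18 and Rps27 are at chr20:4933735-4933764 (plus) and chr2:177964587-177964616 (minus). The paralogue windows are at chr8:76443648-76443677 for Rps27l, chr2:113683186-113683215 for Rpl22l1 and chr9:21695708-21695737 for Rpl7l1, all on the plus strand. The run of pyrimidines was 5 bases long in Rplp0 and 12 bases long in Rpl10 and Rpl31. An annotated start can be several bases off the cap, so the count of matches describes the annotation.

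Library totals ran from 13351137 to 21977663 reads, and a count of 3 reads corresponds to between 0.137 and 0.225 CPM, below every member's level in every rat. Mean CPM over the 16 rats ran from 2.38 for Rpl38 to 409 for Rps2, and 79 of the 85 members averaged at least 10 CPM. CPM is not divided by transcript length, so this range does not order the genes by number of transcripts. Mitochondrially encoded genes took 26.3% ± 11.8 of reads in controls (SD, n = 4) and 9.24% ± 2.20 in PAN. The pioglitazone rats had 14.3% ± 4.57 and the GQ-16 rats 16.4% ± 11.2. Because each library was divided by its own total, a lower mitochondrial share raises the CPM of every other gene. Changes are therefore also given after median-ratio scaling (by median ratio), in which a library is divided by the median of its genes' ratios to their geometric means.

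Taken as a whole, the 85 genes held a larger share of reads in PAN than in controls when all reads were counted, and the groups did not overlap. Their summed share was 1.21%, 0.929%, 0.993% and 1.29% in the 4 controls and 1.69%, 1.42%, 1.34% and 1.37% in the 4 PAN rats. With pioglitazone it was 1.27%, 1.42%, 1.22% and 1.44%, and with GQ-16 it was 1.51%, 1.27%, 1.34% and 1.32%. The lowest PAN rat lay just above the highest control, and both drug groups overlapped with the controls at their lower end. These are bulk samples, so more cells of a type and more RNA per cell cannot be told apart.

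When reads of the 21 mitochondrial genes were left out of the total, the share was 1.503% ± 0.0787 (SD, n = 4) in controls and 1.60% ± 0.133 in PAN. The pioglitazone group had 1.56% ± 0.125 and the GQ-16 group 1.65% ± 0.234, and all 4 groups overlapped. PAN rat 1 reached 1.79%, against 1.503% to 1.58% in the other PAN rats. GQ-16 rats 1 and 2 reached 1.85% each, and GQ-16 rats 3 and 4 stood at 1.48% and 1.42%. The rats within the drug and PAN groups thus differed more than the group means did.

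**Figure D1:**
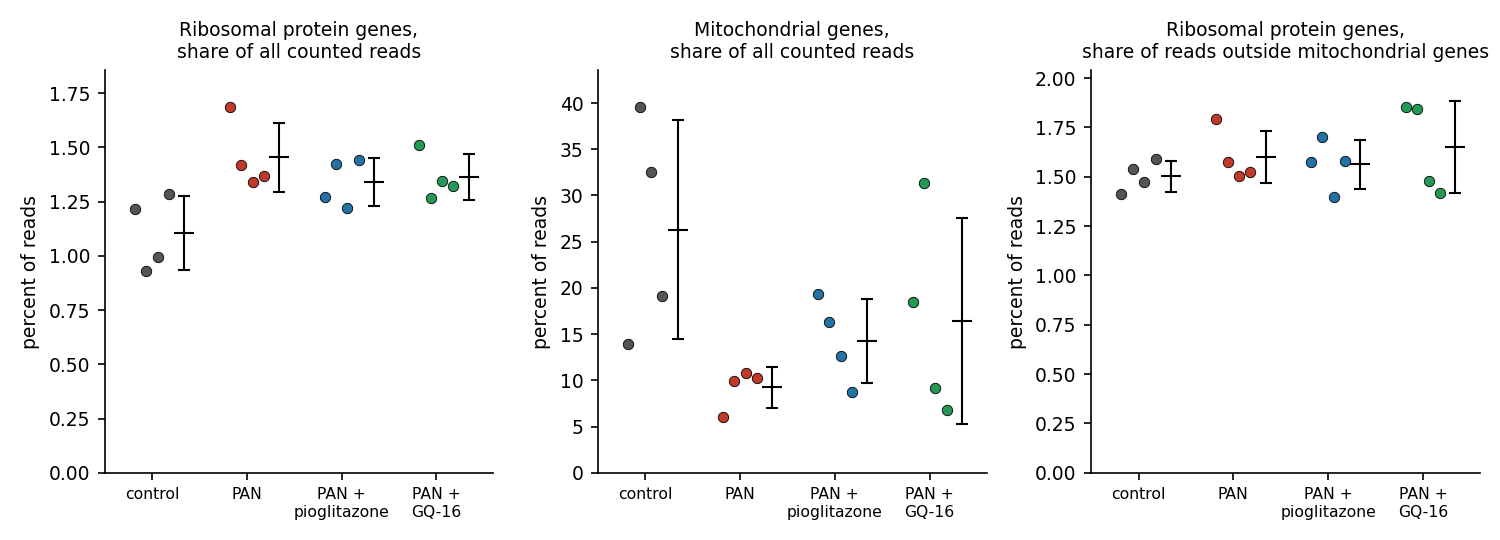
Summed share of reads of the 85 ribosomal protein genes, of all counted reads (left) and of reads outside mitochondrial genes (right), with the mitochondrial share (middle), in percent; points are rats, and the bar beside each group is mean ± SD (n = 4). PAN lies above the controls on the left (1.34% to 1.69% against 0.929% to 1.29%), and all 4 groups overlap on the right.

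The question of the first comparison was how glomeruli of PAN rats differ from healthy glomeruli. In PAN, 45 of the 85 ribosomal protein genes were higher (52.9%) and 0 were lower by limma's moderated test with Benjamini-Hochberg adjustment over all 13222 genes (adjusted p under 0.05), against 21.7% of all genes higher and 0.522% lower; with median-ratio scaling 1 of 85 was higher, against 7.12% of all genes. At an unadjusted p under 0.05 the count in either direction was 70 of 85 (82.4%, against 42.1% of all genes) under the deposited scaling and 7 (8.24%, against 26.6%) under median-ratio scaling. Limma-voom with median-ratio scaling also called 1, with 7 at that level (against 26.4% of all genes). The member shares were thus above those of all genes under the deposited scaling and below them under median-ratio scaling. The median log2 change of the 85 was 0.40 (quartiles 0.33 to 0.46) beside 0.28 for all genes, and all 85 were positive (83.3% of all genes). Under median-ratio scaling the median was 0.10 (quartiles 0.04 to 0.17) beside 0.00 for all genes, with 73 positive (49.6% of all genes) and 12 negative. The groups did not overlap, with PAN higher, for 45 members (22.4% of all genes) under the deposited scaling and for 12 (10.6% of all genes) under median-ratio scaling.

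By subunit, under the deposited scaling 24 of 48 large-subunit, 19 of 34 small-subunit and 2 of 3 stalk genes were called higher, with median log2 changes of 0.40, 0.40 and 0.41. Under median-ratio scaling 0 of 48, 1 of 34 and 0 of 3 were called, with medians of 0.10, 0.10 and 0.11. Differences between subunits were not tested. The 20 single-identifier members with a TOP-type annotated start had a median log2 change of 0.40 (median-ratio scaling 0.10), and the 35 with another start 0.42 (0.12).

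The count rested on single libraries. It was 3 without control rat 2, 2 without control rat 3, 2 without PAN rat 1 and 11 without PAN rat 2, and it was 59 without control rat 1 and 68 without control rat 4. Of all genes, 6.5%, 6.34%, 7.93% and 9.96% were called in the first 4 of these and 37.5% and 28.9% in the last 2, so the member share was below that of all genes without control rat 2, control rat 3 or PAN rat 1. Control rats 2 and 3 had the highest mitochondrial shares of their group, 39.6% and 32.6%, and PAN rat 1 the lowest of all libraries, 5.98%. Without the 3 libraries above 30% mitochondrial reads (control rats 2 and 3 and GQ-16 rat 2) the count was 0 (0.424% of all genes), the median change 0.22, and 0.11 with median-ratio scaling.

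**Figure D2:**
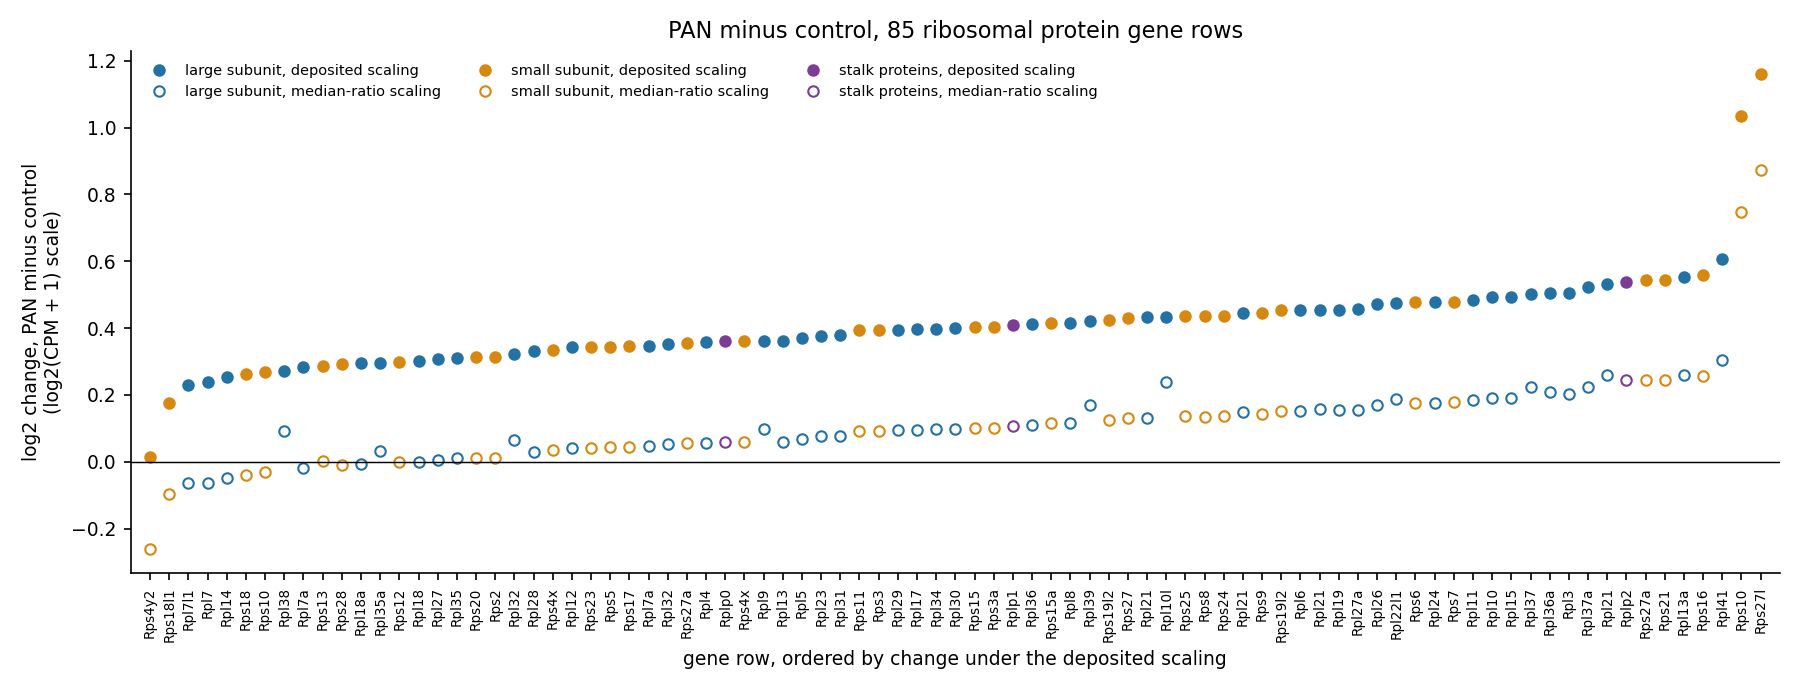
Log2 change from control to PAN for each of the 85 genes, ordered by the change under the deposited scaling (filled) and shown again under median-ratio scaling (open), coloured by subunit. The filled points are all above 0 with a median of 0.40, the open points centre on 0.10 with 12 below 0, and Rps27l stands at the right end under both.

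Among members of the ribosome proper, Rplp0, the stalk base often used as a reference gene, had 401, 319, 321 and 388 CPM in the controls and 543, 441, 427 and 424 CPM in PAN. The groups did not overlap. The log2 change of 0.36 (SE 0.13) missed the threshold (limma adjusted p = 0.0503) and was 0.06 under median-ratio scaling. Without control rat 1, control rat 4 or PAN rat 4 it passed, with adjusted p of 0.0257, 0.0397 and 0.0481, and so it did with a pseudocount of 0.1 (0.0498) or with genes averaging at least 10 CPM alone (0.0483). The other stalk proteins, which form the mobile arms that recruit elongation factors, were higher by 0.41 for Rplp1 and 0.54 for Rplp2 (limma adjusted p = 0.0441 and 0.0296), and by 0.11 and 0.25 without passing the test under median-ratio scaling.

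Rpl5 and Rpl11 form the 5S ribonucleoprotein of the large subunit. Rpl5 stood at 289, 225, 230 and 309 CPM in the controls and at 407, 320, 316 and 315 CPM in PAN. The change of 0.37 was just short of the threshold (SE 0.13, limma adjusted p = 0.0527; median-ratio scaling 0.07). It passed the test without control rat 1 (adjusted p = 0.0317) or control rat 4 (0.0264). Rpl11 stood at 166, 124, 137 and 175 CPM in the controls and at 232, 205, 200.2 and 202 CPM in PAN. The Rpl11 groups did not overlap under either scaling. It was higher by 0.49 (SE 0.13, limma adjusted p = 0.0194) under the deposited scaling against 0.18 (adjusted p = 0.153) by median ratio. PAN rat 1 was the highest rat of all 16 for both genes.

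Rpl3, which lies by the peptidyl transferase centre, stood at 342, 250, 259 and 337 CPM in the controls and at 542, 397, 388 and 365 CPM in PAN. It was higher by 0.51 (SE 0.15, limma adjusted p = 0.0283), against 0.20 (adjusted p = 0.23) by median ratio, with no overlap under either. Rps6, the small-subunit protein that S6 kinases phosphorylate downstream of mTORC1, had 81.1, 60.6, 68.4 and 84.8 CPM in the controls and 125, 99.4, 93.2 and 93.9 CPM in PAN. Rps6 was higher by 0.48 (SE 0.13, limma adjusted p = 0.0201), against 0.18 (adjusted p = 0.215) by median ratio, again without overlap.

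Rps16, a small-subunit protein near the decoding side, had 326, 229, 231 and 329 CPM in the controls and 489, 401, 381 and 358 CPM in PAN. Rps16 was higher by 0.56 (SE 0.16, limma adjusted p = 0.0247), against 0.26 (adjusted p = 0.12) by median ratio, where the groups again did not overlap. Rpl41, the shortest ribosomal protein, had 313, 181, 224 and 365 CPM in the controls and 401, 374, 384 and 435 CPM in PAN. Rpl41 was higher by 0.61 (SE 0.19, limma adjusted p = 0.0353), against 0.30 (adjusted p = 0.169) by median ratio. Control rat 2 was the lowest of the 16 rats for both genes.

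The calls of Rpl11, Rpl3, Rps6, Rps16 and Rpl41 were each lost without control rat 2, control rat 3 or PAN rat 1. The log2 changes then lay between 0.38 and 0.60, and the largest limma adjusted p over these omissions was 0.0745 for Rpl11, 0.105 for Rpl3, 0.0801 for Rps6, 0.0971 for Rps16 and 0.134 for Rpl41. Rpl3 and Rps16 lost the call without PAN rat 2 as well (adjusted p = 0.0568 and 0.0572), and Rpl41 without each of the 4 PAN rats in turn (adjusted p up to 0.0875).

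The members at the lower end changed sign with the scaling. Rpl7, a large-subunit protein that binds RNA, averaged 311 CPM in controls and 367 CPM in PAN, a log2 change of 0.24 (limma adjusted p = 0.151) that was -0.06 under median-ratio scaling. Rps4y2, a relative of Rps4x by symbol, had 4.8, 10.0, 7.3 and 14.03 CPM in the controls and 11.0, 8.3, 9.2 and 6.3 CPM in PAN. The groups overlapped throughout, with a change of 0.01 (SE 0.28, limma adjusted p = 0.972), or -0.26 under median-ratio scaling. Rps2 differed by 0.31 (median-ratio scaling 0.01, quantile normalization -0.03), and Rpl38 by 0.27 (0.09 and -0.07), neither passing the test. The Rpl38 value ran from 0.095 without control rat 2 to 0.40 without control rat 4. Rpl39 differed by 0.42 (limma adjusted p = 0.105), 0.17 under median-ratio scaling, and was called without control rat 4 (0.56, adjusted p = 0.0388).

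Rps27l had the largest change of the family in PAN under both the deposited and the median-ratio scaling. This paralogue of Rps27 (ENSRNOG00000050473) had 22.2, 12.9, 12.9 and 19.2 CPM in the controls and 44.4, 37.4, 29.998 and 40.6 CPM in PAN. Every PAN rat was above every control, and the highest control reached 22.2 against a lowest PAN rat of 29.998. With pioglitazone the rats had 18.9, 28.5, 23.9 and 34.3 CPM, and with GQ-16 they had 23.5, 20.6, 28.8 and 25.2 CPM. All 4 GQ-16 rats lay below all 4 PAN rats, by a narrow margin (highest 28.8 against lowest 29.998 CPM), while the pioglitazone group overlapped with both PAN and the controls. The share of all genes set apart in this way between GQ-16 and PAN was not counted.

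Rps27l rose by 1.16 on the log2 scale in PAN (SE 0.20, limma adjusted p = 0.00173) and by 0.87 (adjusted p = 0.00207) with median-ratio scaling, the 1 member called under median-ratio scaling. It passed the test without each of the 8 rats in turn (1.05 to 1.30, largest adjusted p = 0.00976) and with a term for library number, 25 or more against lower (1.04, adjusted p = 0.0282). Without control rats 2 and 3 and GQ-16 rat 2 the change was 0.84 and the adjusted p 0.0852, with 2 controls left. Scaled by median ratio, the controls had 21.5, 17.3, 15.8 and 19.2 CPM and the PAN rats 38.3, 34.4, 27.5 and 38.4 CPM.

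Rps27, the canonical counterpart, had 88.0, 75.2, 77.5 and 104 CPM in the controls and 146, 106, 107 and 107 CPM in PAN. Its change of 0.43 (SE 0.15, limma adjusted p = 0.0462), or 0.13 (adjusted p = 0.471) under median-ratio scaling, lay near the family median. The call was lost without control rat 2, control rat 3 or any of PAN rats 1, 2 and 3, with adjusted p up to 0.157.

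Of 9 other listed p53 targets 6 were called higher (21.7% of all genes), and 5 under median-ratio scaling (7.12%). Of the 3 not called, Sesn2 differed by -0.10 (-0.40 by median ratio), and Sesn1 and Zmat3 were also negative by median ratio (-0.20 and -0.05). Cdkn1a, the cell cycle inhibitor p21, rose by 1.95 (1.66 under median-ratio scaling), Phlda3, an inhibitor of AKT signalling, by 2.04 (1.76) and Ccng1, cyclin G1, by 1.01 (0.71). Ccng1 lost the call without control rat 2 or control rat 3 (limma adjusted p = 0.0666 and 0.0571), with limma-voom (0.0519), with the library number term (0.17) and without the libraries above 30% mitochondrial reads (0.231, and 0.309 by median ratio). Cdkn1a and Phlda3 passed in each of these settings. The list was chosen with earlier results known, and its part in the Rps27l change was not tested.

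**Figure D3:**
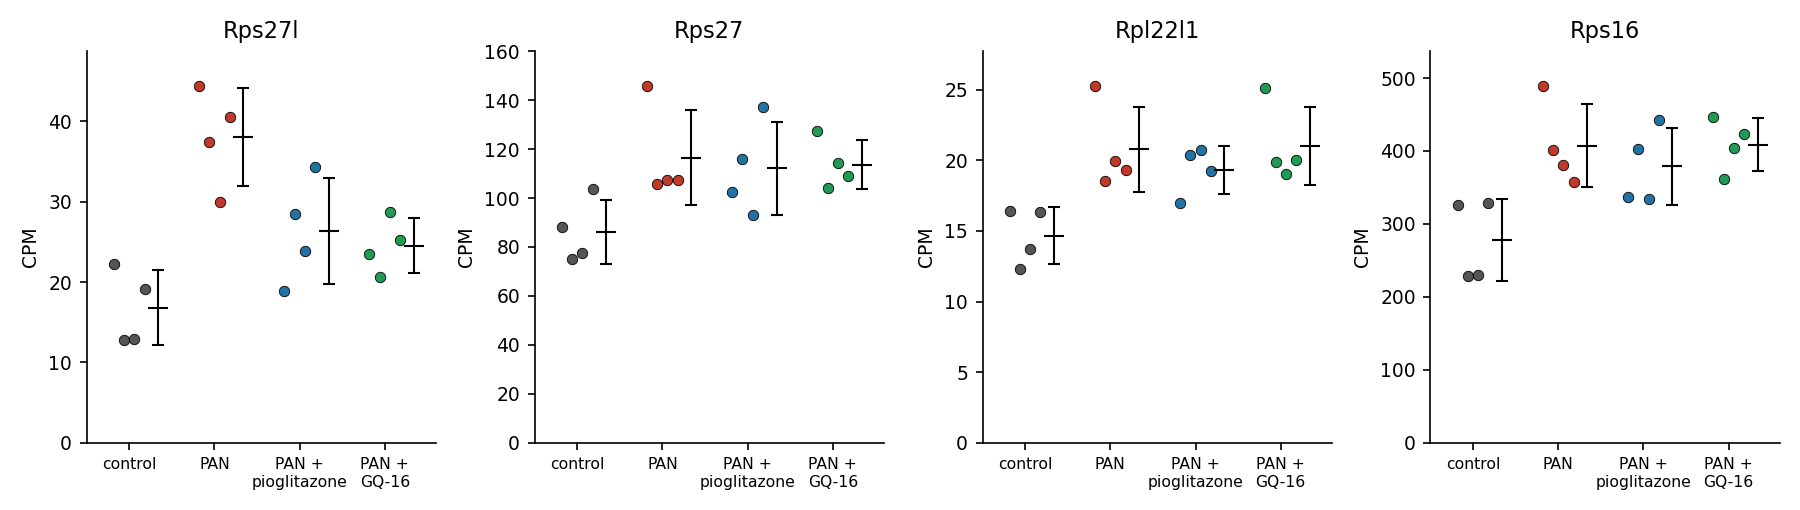
CPM of Rps27l, its counterpart Rps27, the paralogue Rpl22l1 and the canonical small-subunit gene Rps16 in each rat under the deposited scaling (points), with mean ± SD beside each group (n = 4). For Rps27l the 4 PAN rats (29.998 to 44.4 CPM) lie above all controls and all GQ-16 rats; for the other 3 genes the drug groups overlap with PAN.

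The remaining paralogue-type members did not form a group. Rpl22l1, a paralogue of Rpl22, had 16.4, 12.3, 13.7 and 16.3 CPM in the controls and 25.2, 18.5, 19.97 and 19.3 CPM in PAN. It was higher by 0.47 (SE 0.13, limma adjusted p = 0.0227), or 0.19 (adjusted p = 0.272) under median-ratio scaling, without overlap in either. The call was lost without control rat 2, control rat 3 or PAN rat 1 (largest adjusted p = 0.0864). Rpl7l1, which takes part in making the large subunit, averaged 34.3 CPM in controls and 40.4 CPM in PAN, a change of 0.23 (limma adjusted p = 0.125) that was -0.06 under median-ratio scaling.

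Rps18l1 averaged 9.34 and 10.6 CPM, a change of 0.18 (limma adjusted p = 0.454; -0.10 under median-ratio scaling). Rpl10l, which stands in for Rpl10 in male germ cells, was near the bottom of the range, at 1.83 ± 0.551 CPM in controls and 2.86 ± 0.975 CPM in PAN (SD, n = 4), and its change of 0.43 was not called (limma adjusted p = 0.312; 0.24 by median ratio). Its highest single value was 4.57 CPM and its lowest 0.861 CPM, both in drug-treated rats. Rps19l2 has 2 identifiers, 1 called (0.45, adjusted p = 0.0241) and 1 just not (0.43, adjusted p = 0.051, passing without control rat 4 or PAN rat 3 or 4 and with genes averaging at least 10 CPM alone), and by median ratio the changes were 0.15 and 0.13. The called identifier lost the call without control rat 2, control rat 3, PAN rat 1 or PAN rat 2 (largest adjusted p = 0.0976).

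Where a symbol has more than 1 identifier, the split of reads between them was steady for most and unsteady for Rps27a and Rps10. Rps27a, made as a fusion of ubiquitin to the ribosomal protein, has ENSRNOG00000004426 and ENSRNOG00000034246. The first held 67.2%, 60.7%, 58.2% and 63.8% of Rps27a reads in the controls and 82.1%, 52.6%, 52.2% and 45.1% in PAN. With pioglitazone it held 83.3%, 79.4%, 66.5% and 75.4%, and with GQ-16 81.9%, 78.4%, 55.4% and 74.3%. PAN rat 1 lay above every control and the other 3 PAN rats below every control, while the treated rats ran from 55.4% to 83.3%. For Rps4x, in contrast, the leading identifier held 76.2% to 79.3% of reads in all 16 rats, and for Rpl21 55.6% to 58.8%.

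In CPM, the second Rps27a identifier had 48.1, 42.0, 45.9 and 56.3 in the controls, 39.0, 84.0, 78.8 and 93.2 in PAN. The pioglitazone rats had 25.6, 34.8, 48.4 and 46.8 CPM, and the GQ-16 rats 36.4, 35.4, 76.6 and 42.8 CPM. Neither identifier was called in PAN (0.36 and 0.54, limma adjusted p = 0.27 and 0.149), and by median ratio the differences were 0.06 and 0.25 (adjusted p = 0.896 and 0.569). Without PAN rat 1 they were 0.091 and 0.82. With a term for tubule markers the second identifier was called (0.92, adjusted p = 0.0488). Summed, Rps27a stood at 130 ± 24.9 CPM in controls and 182 ± 24.0 CPM in PAN (SD, n = 4). The sum was higher by 0.50 (limma adjusted p = 0.0269), or 0.20 (adjusted p = 0.224) under median-ratio scaling.

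Rps10, at the head of the small subunit, showed the same kind of split. Its minor identifier, ENSRNOG00000052141, had 9.1, 23.5, 8.4 and 19.1 CPM in the controls and 28.5, 24.96, 33.5 and 30.4 CPM in PAN. It was higher by 1.03 (SE 0.32, limma adjusted p = 0.034), the second largest change of the family under the deposited scaling, or by 0.75 (adjusted p = 0.204) under median-ratio scaling. The call was lost without control rat 1, control rat 3 or any 1 of the PAN rats, with adjusted p up to 0.128. With the library number term its change was the largest of the family (1.39, limma adjusted p = 0.0575). Without the libraries above 30% mitochondrial reads it was above that of Rps27l (1.08 against 0.84, and 0.97 against 0.73 by median ratio), with neither called. The main identifier differed by 0.27 (adjusted p = 0.218; -0.03 by median ratio), and the 2 summed by 0.37 (adjusted p = 0.0406; 0.07 by median ratio). Reads of near-identical copies may be assigned to either, and how multiply aligned reads were counted is not given in the sources used here, so single identifiers of these symbols are uncertain. Levels of members with 1 identifier, such as the low Rpl38, carry the same limit where near-identical copies exist outside the listed genes.

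**Figure D4:**
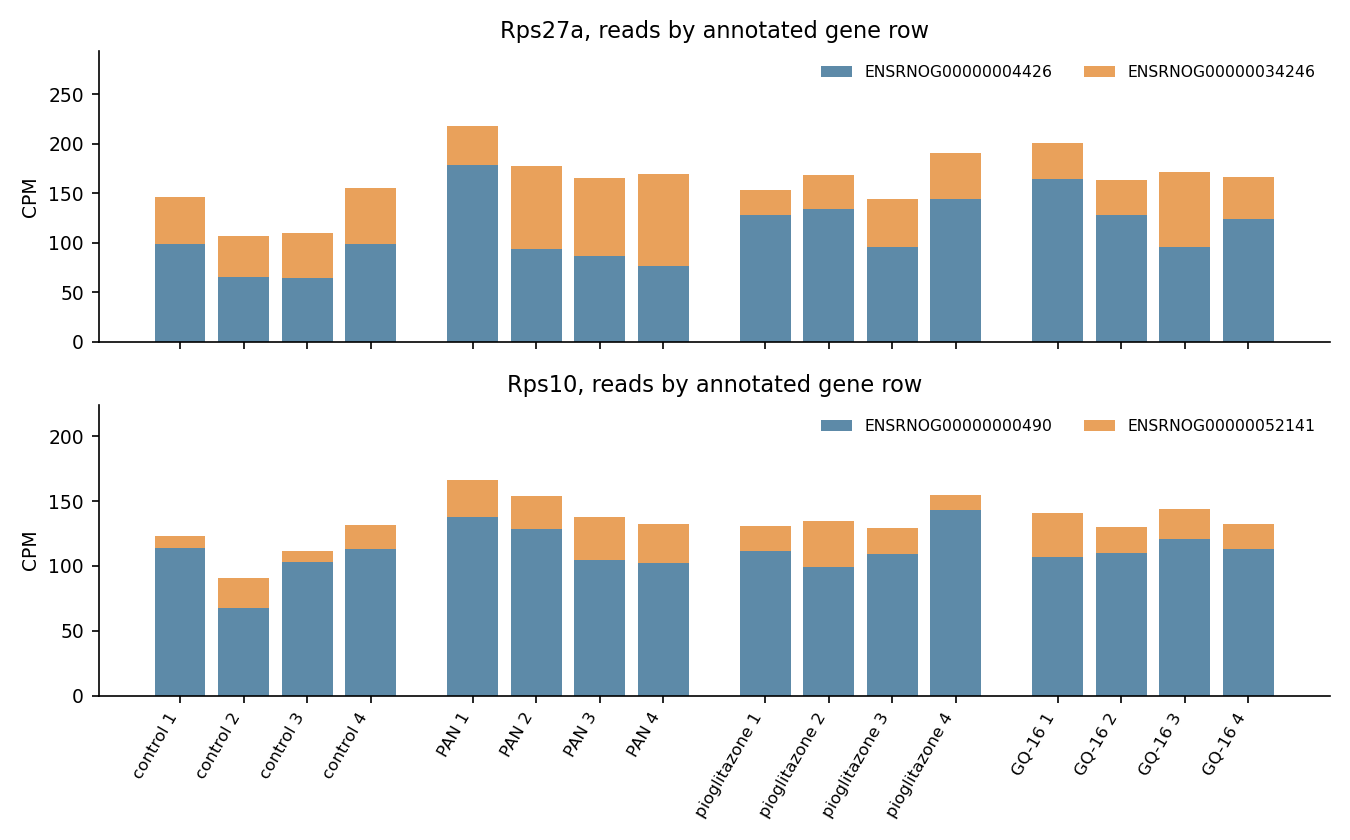
CPM of Rps27a and Rps10 in each rat, stacked by gene identifier. The division of Rps27a shifts between rats within a group, from 45.1% to 82.1% for the lower segment in PAN, while the summed height varies less.

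A shift common to all members accounted for 66.5% of their variance between the 16 rats on the log2 scale under the deposited scaling and 36.8% under median-ratio scaling. The same share over all genes was 21.0% and 0.427%, the latter scaling being set to remove a shift of all genes. The common shift ranged from -0.48 to 0.36 between rats, and from -0.17 to 0.24 with median-ratio scaling. The remaining variance includes the shifts of reads between identifiers described above.

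The drugs were compared with PAN alone to ask whether they altered its glomerular pattern. With pioglitazone 0 of 85 members were called against PAN (0% of all genes), 2 at an unadjusted p under 0.05 (3.74% of all genes), and limma-voom called 0 with 3 at that level (6.22%). The median log2 difference of the members was -0.11 beside -0.09 for all genes, and -0.02 beside -0.01 by median ratio. It was -0.04 without PAN rat 1 and -0.06 without pioglitazone rat 3. With GQ-16 0 of 85 were called (0.0151% of all genes), 2 at an unadjusted p under 0.05 (8.27% of all genes), and limma-voom called 0 with 1 at that level (7.37%). The GQ-16 median was -0.08 beside -0.11 for all genes, and it turned to 0.05 beside 0.01 under median-ratio scaling. It was -0.0033 without PAN rat 1, -0.13 without GQ-16 rat 1 and -0.050 without GQ-16 rat 2.

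Rps27l was again at an edge. It was 0.61 lower on the log2 scale with GQ-16 than in PAN (difference -0.61, SE 0.20, unadjusted p = 0.00751, limma adjusted p = 0.421), and the difference was -0.49 by median ratio (adjusted p = 0.44). With pioglitazone the difference from PAN was -0.53 (SE 0.20, unadjusted p = 0.017, limma adjusted p = 0.916), or -0.45 by median ratio. Neither difference passed the correction. Among the p53 targets, Cdkn1a was lower with GQ-16 than in PAN by limma (difference -1.38, adjusted p = 0.0189; -1.25 and 0.068 by median ratio) and was not called with pioglitazone (-0.30, adjusted p = 0.916). The call with GQ-16 was lost without PAN rat 1, PAN rat 2, GQ-16 rat 1 or GQ-16 rat 2 (adjusted p = 0.0665, 0.0585, 0.128 and 0.101), with differences of -1.38 to -1.20. It held with a pseudocount of 0.1, with genes averaging at least 10 CPM alone and with the tubule marker term, and was lost in the 8 other settings run for it (adjusted p 0.068 to 0.477).

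The second Rps27a identifier differed from PAN by -0.88 with pioglitazone (unadjusted p = 0.00651, limma adjusted p = 0.916) and by -0.62 with GQ-16 (unadjusted p = 0.0431, adjusted p = 0.587), or by -0.80 and -0.49 by median ratio. Rps4y2 differed by 0.54 and 0.46 in the other direction, with 13.04 ± 2.47 CPM under pioglitazone, 12.8 ± 4.67 CPM under GQ-16 and 8.70 ± 1.95 CPM in PAN (SD, n = 4; limma adjusted p = 0.916 and 0.707), or by 0.62 and 0.57 by median ratio. The minor Rps10 identifier differed by -0.53 and -0.31, or -0.44 and -0.18 by median ratio. None of these passed the correction, and the groups overlapped in each.

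Against healthy controls, 84 of 85 differences were positive and 1, the second Rps27a identifier, was negative in each treated group (-0.33 with pioglitazone, -0.07 with GQ-16), and no member was called. Of all genes 80.4% and 73.2% were positive. By median ratio 74 members were positive and 11 negative with pioglitazone (51.9% of all genes positive), and 81 and 4 with GQ-16 (50.7%). These comparisons share the control rats with the first. With pioglitazone 0 of 85 members were called (4.98% of all genes), 42 at an unadjusted p under 0.05 (49.4%, against 28.5% of all genes), and limma-voom called 0 with 2 at that level (2.35%, against 20.2%). The median log2 difference was 0.30, beside 0.21 for all genes, and 0.09 beside 0.01 by median ratio. With GQ-16 0 of 85 were called (0.151% of all genes), 53 at an unadjusted p under 0.05 (62.4%, against 23.9% of all genes), and limma-voom called 0 with 10 (11.8%, against 22.6%). The GQ-16 median was 0.32 beside 0.17, and 0.14 beside 0.00 by median ratio.

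The count with pioglitazone was 3 without control rat 1, 6 without control rat 4 and 1 without pioglitazone rat 1, and that with GQ-16 was 7 without control rat 1. Of all genes 12.6%, 7.22%, 3.62% and 11.9% were then called, each above the member share. Over all left-out rats the all-gene calls numbered 48 to 1660 in the pioglitazone comparison and 0 to 1572 in the other. Rps27l was 0.63 above control with pioglitazone (SE 0.20, limma adjusted p = 0.0768) and 0.55 with GQ-16 (SE 0.20, adjusted p = 0.137), and 0.42 and 0.38 by median ratio. Rps16 was 0.57 above control with GQ-16 (SE 0.16, limma adjusted p = 0.0928), and Rpl22l1 0.49 (SE 0.13, adjusted p = 0.0896). By median ratio these were 0.39 (adjusted p = 0.0605) and 0.33 (adjusted p = 0.102).

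The 2 drugs were also set against each other; their doses are not given. For GQ-16 minus pioglitazone 0 of 85 members were called (0% of all genes), 0 at an unadjusted p under 0.05 (5.94% of all genes), with 0 and 0 by limma-voom (7.7% at that level). The median was 0.02 (quartiles -0.02 to 0.05), beside -0.02 for all genes, and 0.07 beside 0.02 by median ratio; it turned to -0.03 without GQ-16 rat 1 and to -0.02 without pioglitazone rat 3. Rps27l differed by -0.08 (SE 0.20, limma adjusted p = 0.999).

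**Figure D5:**
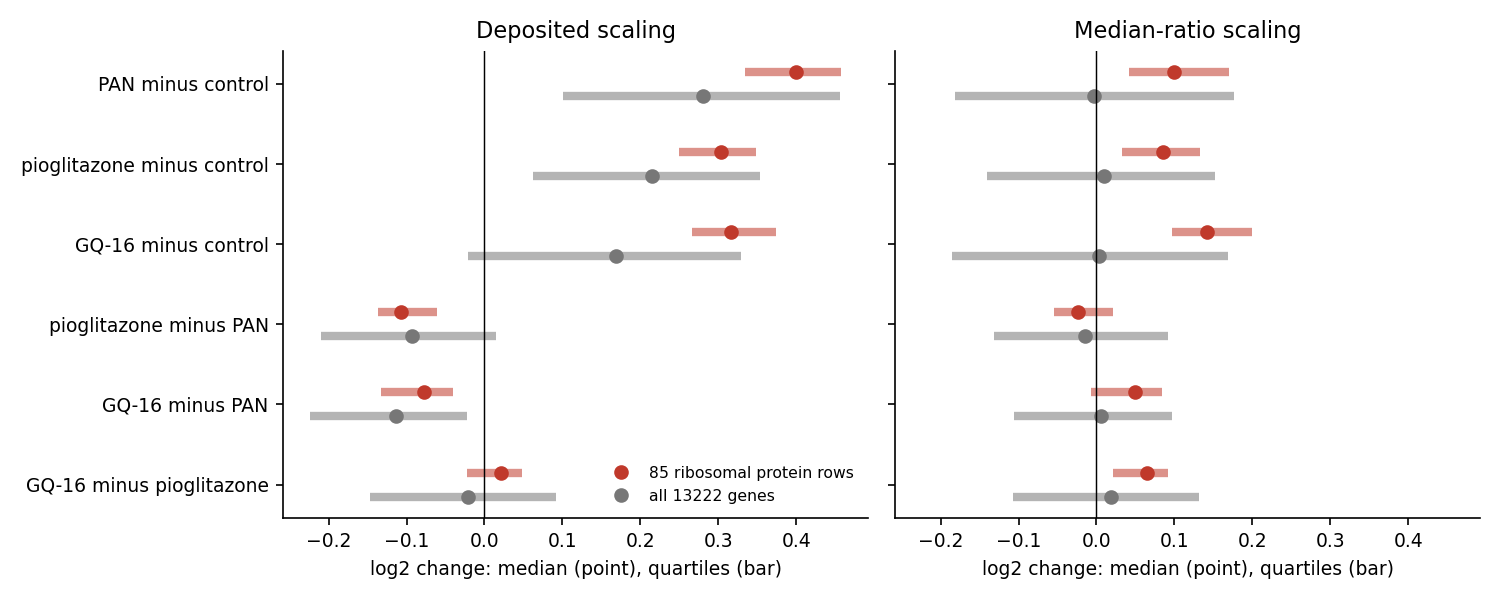
Median (point) and quartiles (bar) of the log2 change of the 85 ribosomal protein genes and of all 13222 genes in the 6 comparisons, under the deposited scaling (left) and median-ratio scaling (right). The 3 comparisons with control lie to the right of 0 for the ribosomal genes, at 0.40, 0.30 and 0.32 on the left and 0.10, 0.09 and 0.14 on the right; GQ-16 minus PAN changes sign between the panels.

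The rest of the translation machinery was read from lists chosen with earlier results known, against 21.7% of all genes called higher (7.12% by median ratio). In PAN against control, Rack1 was called higher among Rpsa, Fau and Rack1 (0.39, limma adjusted p = 0.041, and 0.09 by median ratio). Of the 2 large-subunit rows listed outside the naming pattern, Rpl36al among them, 0 were called and 2 had an unadjusted limma p under 0.05. Their changes were 0.34 and 0.51 (0.04 and 0.27 by median ratio). Of the initiation factors 12 of 32 were higher, 2 under median-ratio scaling. Eif5b, the GTPase of subunit joining, rose from 283 ± 158 to 655 ± 151 CPM (SD, n = 4), a log2 change of 1.38 (limma adjusted p = 0.0179; 1.08 and 0.0289 by median ratio). Pabpc1, the poly(A) binding protein and itself a TOP mRNA, rose by 0.70 (0.40 by median ratio, adjusted p = 0.0382). Eif3m, a subunit of eIF3, rose by 0.76 under the deposited scaling and differed by 0.46 (adjusted p = 0.0596) by median ratio.

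Of 10 elongation and termination factors 3 were higher, near the share of all genes, and 0 under median-ratio scaling, where 3 had an unadjusted p under 0.05. These were Eef1b2 (0.55), Eef1d (0.46) and Eef1g (0.45), the exchange factor subunits of eEF1. Of 16 other TOP mRNAs 6 were higher (1 by median ratio), with a median of 0.34 (0.05). This list shares genes with those above, among them Rack1, Pabpc1, Eef1b2, Eef1d and Eef1g, so its count is not separate from theirs. Of 34 ribosome biogenesis genes 12 were higher (2 by median ratio), with a median of 0.40 (0.11), the same as the ribosomal proteins to 2 decimals under the deposited scaling. Rrp12, a pre-ribosome export factor, rose by 0.74 (0.45 by median ratio, adjusted p = 0.046), and Nhp2, of the H/ACA snoRNPs, by 0.72 (0.45, adjusted p = 0.0319).

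Of 16 genes of mTORC1 and TOP mRNA control 2 were higher, and 1 under median-ratio scaling: Eif4ebp1, the inhibitor of eIF4E, rose by 0.76 (0.50 by median ratio, adjusted p = 0.0419), and Tsc2, a brake on mTORC1, was higher by 0.53 (0.23, adjusted p = 0.189). Of 74 mitochondrial ribosomal protein genes, encoded in the nucleus, 10 were higher (2 by median ratio), with a median of 0.26 that became -0.02 under median-ratio scaling. Under the deposited scaling the shares called in these last 2 lists lay below that of all genes. Mrpl33 rose by 0.80 (0.51 by median ratio, adjusted p = 0.00546) and passed the test without each of the 8 rats in turn. Its call was lost with the library number term (0.69, adjusted p = 0.0865) and without the libraries above 30% mitochondrial reads (0.54, 0.133; by median ratio 0.43, 0.159). The other called genes named from these lists, from Rack1 to Tsc2, each lost the call without control rat 2, control rat 3 or PAN rat 1 (limma adjusted p up to 0.157), and also with the library number term (0.156 to 0.477) and without the libraries above 30% mitochondrial reads (0.252 to 0.531, and 0.343 to 0.718 by median ratio). Of those called by median ratio, Eif4ebp1 and Rrp12 were not called with quantile normalization (adjusted p = 0.0709 and 0.0648), totals without mitochondrial genes (0.0595 and 0.0536), limma-voom (0.0554 and 0.0556) or the tubule marker term (0.066 and 0.0735), and Pabpc1 was not with quantile normalization (0.0546). In either drug against PAN, 0 of the initiation, other TOP, biogenesis and mitochondrial ribosomal genes were called by limma under either scaling, with between 0 and 4 per list at an unadjusted p under 0.05. The highest count was 4 of 32 initiation factors with GQ-16 by median ratio. Of all 13222 genes, 495 reached that level with pioglitazone and 1094 with GQ-16 (733 and 913 by median ratio).

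Cell type markers also differed between PAN and control, and library numbers fell unevenly. Cycling-cell markers were higher in 4 of 4 (summed 111.6 to 210.4 CPM in PAN against 25.4 to 30.6 in controls), mesangial and smooth muscle markers in 6 of 6 (969 to 1753 against 254 to 641), and striated muscle markers in 3 of the 3 with values, of 6 listed (369 to 582 against 4.78 to 25.4). Of 6 podocyte markers 2 were higher (6429 to 9504 against 2071 to 8106), of 4 leukocyte markers with values, of 6 listed, 2 (112 to 304 against 95.9 to 122), and of 6 distal nephron markers 3 were lower (482 to 1026 against 898 to 1587). All 6 podocyte differences were positive, with a median of 1.48 (1.18 by median ratio). Of these 5 had an unadjusted limma p under 0.05 (3 by median ratio). With pioglitazone and with GQ-16 against control all 6 were positive too (medians 1.15 and 1.52). There 0 and 0 were called, and 2 and 4 had an unadjusted limma p under 0.05. Of 6 proximal tubule markers 0 were called by limma, with 0 at an unadjusted p under 0.05 (2478 to 8416 against 3290 to 7343), and of 5 endothelial markers with values, of 6 listed, 0, also with 0 at that level (3517 to 5475 against 4094 to 5892); no marker with values was at 0. By median ratio the calls were 4 of 4 cycling, 5 of 6 mesangial, 3 of 3 striated muscle and 1 of 6 podocyte markers higher and 2 of 6 distal nephron markers lower. None of the leukocyte markers was then called by limma, with 2 at an unadjusted p under 0.05, and 0 proximal tubule markers were, with 0 at that level. All 5 endothelial markers had negative differences by median ratio (median -0.54), 0 called and 3 at an unadjusted p under 0.05. With pioglitazone against control 4 of 6 mesangial (868 to 1069 CPM), 3 of 4 cycling (79.3 to 142 CPM) and 3 of 3 striated muscle markers (83.9 to 486 CPM) were higher and 2 of 6 distal nephron markers lower (553 to 665 CPM), by limma, and 4, 2, 3 and 2 by median ratio. With GQ-16 against control 2 of 3 striated muscle markers were called (71.8 to 504 CPM; 3 by median ratio), and 0 of the mesangial (511 to 906 CPM) and cycling markers (19.6 to 141 CPM), with 5 of 6 and 3 of 4 at an unadjusted p under 0.05. Against PAN limma called 0 markers with either drug under either scaling. With GQ-16 all 6 mesangial and all 4 cycling markers had negative differences from PAN (medians -0.95 and -0.97, and -0.82 and -0.85 by median ratio). Of these 4 and 4 had an unadjusted limma p under 0.05 (3 and 2 by median ratio). All 4 leukocyte markers were negative too (median -0.62, and -0.50 by median ratio), with 3 at that level (1 by median ratio). So were all 3 striated muscle markers (-1.42 and -1.30), with 1 (1). Positive differences were found for 5 of 6 distal nephron, 4 of 6 podocyte, 3 of 5 endothelial and 2 of 6 proximal tubule markers. Of all 13222 genes, 10485 were negative (6402 by median ratio) and 8.27% were at that level. With pioglitazone the mesangial and cycling medians against PAN were -0.51 and -0.46, with 1 and 0 at that level. The part of these markers in the ribosomal protein changes was not tested, apart from the tubule: with a tubule marker term 7 members were called (11.3% of all genes). The library numbers in the titles were 25, 31 and 32 for 3 PAN rats, 6 for the other, and 10 or lower for the controls, and the labels do not say whether they mark a batch. A term marking library numbers of 25 or more, which no control had, was estimated from the PAN and drug groups alone. With it 1 member was called (2.97% of all genes), Rps27l, with a median change of 0.35 over the 85. Among libraries numbered 15 or lower, which leave 1 PAN rat assumed to vary like the other groups, 0 members were called (0.597% of all genes) and the median difference was 0.31 (0.066 by median ratio). Rps27l then differed by 1.26 (limma adjusted p = 0.129), or 1.03 (adjusted p = 0.0648) by median ratio, that PAN rat having 40.6 CPM against 12.9 to 22.2 CPM in the controls.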

How the data were processed

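The authors deposited log2 CPM values for 13222 genes in 16 libraries, in the form voom writes, the log2 of reads + 0.5 over total + 1, scaled to CPM; whole reads were recovered for 100% of values (tolerance 0.05). The submitters' processing notes name HISAT2, featureCounts, Subread and limma, and Rnor_6.0, without their order or versions. From these values log2(CPM + 1) was computed, and 4 group means were fitted to all 16 rats with limma 3.58.1 in R 4.3.3, with a mean-variance trend and Benjamini-Hochberg adjustment over all genes (threshold 0.05, two-sided). Changes on this scale understate those of low genes. The members, lists and named genes (11 chosen symbols, paralogues, and the largest or most deviating changes) were chosen with earlier results of these data known. Of the chosen symbols, Rps19 and Rpl22 had no member. No pair of libraries of the same group matched within counting error. The labels do not say how the rats were assigned. The p-values set a difference between groups against the spread between rats of the same group. Promoter sequences are RefSeq's (GRCr8), matched by symbol. Alternatives were other scalings, pseudocounts, filters, fits and left-out libraries. The fit was tested on simulated data. A planned edgeR fit on the recovered reads was not run; limma-voom was run on those reads in its place.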

Additional observations from a re-analysis of the deposited data

Results flagged for a closer look

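Of 104 groups of 4 rats examined for a rat standing apart, 7 held one by Dixon's 95% limit of 0.829, where chance alone would give about 5.2. In 5 of the 7 the rat was PAN rat 1, which also had the lowest mitochondrial share. Its values were 543 CPM for Rplp0 (the other PAN rats 424 to 441), 407 CPM for Rpl5 (315 to 320.1), 232 CPM for Rpl11 (200.2 to 205), 146 CPM for Rps27 (106 to 107) and 179 CPM for the first Rps27a identifier (76.6 to 93.2). GQ-16 rat 1 had 25.1 CPM of Rpl22l1, against 19.02 to 20.04 CPM in the other GQ-16 rats. Pioglitazone rat 3 was low for Rps19l2 identifier ENSRNOG00000037897, at 93.5 CPM against 112 to 115 CPM. These genes move together, so the flags are not independent.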

How the results depend on the processing

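Scaling and single libraries decided how many members were called in PAN against control: 45 as reported, 1 with median-ratio scaling, quantile normalization, totals without mitochondrial genes, limma-voom or the library number term, 5 with only those 2 groups fitted, 7 with the tubule marker term, and 0 without the libraries above 30% mitochondrial reads, or within library numbers of 15 or lower (1 PAN rat), under either scaling. Leaving out each rat gave 2 to 68. The median change was 0.40, and 0.10, 0.09, 0.09 and 0.10 under the first 4 of these, 0.22 without the high mitochondrial libraries and 0.11 with median-ratio scaling too, and 0.066 by median ratio within the low numbers; leaving out each rat gave 0.32 to 0.48. All genes called then ran from 838 to 4964. All genes called were 22.3% as reported, 8.63%, 8.59%, 8.21%, 7.92% and 2.97% under the first 5 alternatives, 11.9% with 2 groups and 11.3% with the tubule term, so the member share was above that of all genes as reported and below it in each of these alternatives.

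For pioglitazone minus control the median of 0.30 became 0.085, 0.071, 0.074 and 0.083 under the same 4 settings, 0.115 and 0.090 without the high mitochondrial libraries, and 0.085 by median ratio within library numbers of 15 or lower; left-out rats gave 0 to 6 members called and medians of 0.23 to 0.38. For GQ-16 minus control the median of 0.32 became 0.142, 0.142, 0.133 and 0.150, then 0.150 and 0.090; left-out rats gave 0 to 7 called and 0.24 to 0.39. For GQ-16 minus PAN the median of -0.08 reversed to 0.049, 0.060, 0.051 and 0.054, to 0.0024 by median ratio without the high mitochondrial libraries, and to 0.021 (0.129 by median ratio) within low numbers, where that of pioglitazone minus PAN reversed to 0.017 by median ratio; left-out rats gave -0.13 to -0.0033 and -0.14 to -0.039. For GQ-16 minus pioglitazone left-out rats gave medians of -0.033 to 0.056 and Rps27l differences of -0.22 to 0.054, with 0.038 (0.075 by median ratio) within low numbers. The difference in share of reads, 0.348 points in PAN and 0.234 with pioglitazone, became 0.0965 and 0.0606 without mitochondrial reads, and that with GQ-16, 0.256, became 0.146, the largest of the 3.

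Signs of uncalled members in PAN minus control also reversed. By median ratio, Rpl7 was -0.063, Rpl7l1 -0.064, Rps4y2 -0.26 and Rps18l1 -0.097; by quantile normalization -0.089, -0.071, -0.32 and -0.16, with Rps2 -0.031 and Rpl38 -0.073; by totals without mitochondrial genes -0.074, -0.076, -0.27 and -0.11, with Rps2 -0.000331; by voom -0.065, -0.065, -0.26 and -0.12. Rps4y2 was -0.15 with library number, -0.24 with the tubule term, and -0.22 to 0.24 over left-out rats. Without the high mitochondrial libraries Rpl38 was -0.076 and Rps18l1 -0.079; by median ratio as well, Rpl38 -0.15, Rps18l1 -0.18, Rpl7 -0.028, Rpl7l1 -0.026, Rps4y2 -0.070 and the first Rps27a identifier -0.060. The cause was not tested. Rps27l in PAN minus control kept its direction and its call in all but the fits without the high mitochondrial libraries and those within low numbers, where the direction stayed and the call was lost. A pseudocount of 0.1, a mean of at least 10 CPM and summing identifiers of a symbol moved no count or median of members beyond these limits. The voom, left-out high mitochondrial library, summed identifier and library number 15 settings were chosen after seeing the data. No paired analysis was possible because the labels give no replicate numbers shared between groups. Every member was above the level of 3 reads in every rat, which shows detection alone; counting error is largest for low members such as Rpl10l (0.861 CPM in 1 rat), and no depth alternative was run.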
